A study of Mus musculus with 15 samples.

Results

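The loops described here are the acidic T cell receptor alpha loops, chosen as every listed peptide whose count of lysine (K) and arginine (R) minus its count of aspartate (D) and glutamate (E) is -2 or lower. This rule reads the peptide alone and uses no read count. It found 1558 of the 92219 distinct loops listed in 15 libraries, or 1.69% of them. Each library is a list of the third complementarity-determining region (CDR3) of the TCR alpha chain with the number of reads of each peptide, written without the conserved residues at both ends. All mice were males of the C57BL/6 background that carry TCRbtg, a fixed transgenic TCR beta chain, so that the sequenced diversity lies in the alpha chain.

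Naive CD8+ T cells (CD8b+ CD4neg CD44lo CD122neg) and MP cells (CD8b+ CD4neg CD44hi CD122+, memory phenotype) were sorted from spleen and lymph nodes, pooled, of mice aged 9 weeks, with 5 libraries each. The 5 Tumour libraries came from CD8b+ CD4neg cells of prostate tumours of TRAMP+/- mice aged 27 weeks. TRAMP is a transgenic model of prostate cancer in which a prostate promoter drives a viral oncogene. The tumour sort used no CD44 or CD122 gate, so that cells of any activation state could enter it. Tumour thus differs from Naive and MP in age, tissue, transgene and gate together, which cannot be told apart. The files hold no genes other than the receptor, so that the labelled cell types could not be checked against marker genes.

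The CDR3 of the alpha chain is made where a variable segment (TRAV) is joined to a joining segment (TRAJ), with nucleotides trimmed and added at the junction. The first residues come mostly from the TRAV segment, the last from the TRAJ segment, and those between from the junction. The loop lies over the centre of the MHC-peptide surface in the bound receptor, where charged residues can form salt bridges. Acidic residues enter a loop from both segments as well as from the junction. The end NTEGADRLT is the germline end of the segment commonly named TRAJ45 and holds E, D and R. DSNYQLI (TRAJ33) and DTNAYKVI (TRAJ30) hold D, while the ends of TRAJ49, TRAJ26 and TRAJ21 hold no acidic residue. The segment names are given as background, without a comparison with germline sequences.

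The following loops carry most of the results. They are the leading acidic loops of each group and those called higher in MP, written from the first to the last listed residue, and positions are counted from 1 at the first. A label names where a loop had most of its reads, and does not exclude other groups unless it says alone. Of the loops labelled MP, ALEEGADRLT, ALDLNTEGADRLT, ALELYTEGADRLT and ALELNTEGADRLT were also listed in Naive, at lower mean shares. Tumour 2 also listed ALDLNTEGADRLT and EDTEGADRLT.
Naive, TRAJ33 end: AIEDSNYQLI
Naive, TRAJ49 end: ATDADTGYQNFY
Naive, TRAJ30 end: ATDEDTNAYKVI
Naive and MP, TRAJ26 end: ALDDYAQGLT
Naive, TRAJ45 end, glycine at position 5: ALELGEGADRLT
Naive and MP, TRAJ45 end, glycine at position 5: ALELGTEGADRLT
Naive, TRAJ45 end, glycine at position 5: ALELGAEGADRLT
Naive and MP, TRAJ45 end, no glycine at position 5: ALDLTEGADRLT
MP, TRAJ45 end, short: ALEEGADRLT
MP, TRAJ45 end: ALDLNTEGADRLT
MP, TRAJ45 end: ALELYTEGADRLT
MP, TRAJ45 end: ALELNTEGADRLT
MP, TRAJ45 end: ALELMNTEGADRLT
MP, TRAJ45 end: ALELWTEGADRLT
MP, TRAJ45 end, net charge -3: EDTEGADRLT
MP 3 alone: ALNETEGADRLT
MP 2 alone: AIEDVLY
Tumour 3 alone: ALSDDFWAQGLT
Tumour 4 alone: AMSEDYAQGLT
Tumour 2 and Naive 1: ATEDDTNAYKVI
Tumour 2 alone: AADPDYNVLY
Mostly Tumour 2, low in Naive: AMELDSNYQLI
Mostly Tumour 1: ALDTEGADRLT
MP 3 and Tumour 2: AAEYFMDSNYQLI

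Most of these loops are only just past the threshold. Net charge was -2 for 1470 members, -3 for 86 and -4 for 2. Just outside the threshold, 9407 loops had a net charge of -1, and the rest fell on 0 (29361 loops), 1 (40090) and 2 or higher (11803). As shares of reads, loops of net charge -2 took 0.779 to 0.914% in Naive, 0.246 to 0.658% in MP and 0.0158 to 0.276% in Tumour. Loops of net charge -1 took 7.15 to 7.75%, 5.35 to 5.67% and 6.12 to 10.5%, respectively. The members at -4 were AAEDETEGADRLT with 5 reads in Naive 4 and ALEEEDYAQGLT with 2 reads in Naive 3.

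The members were built in more than 1 way. Of the 1558, 657 (42.2%) held no K or R at all, 1430 held D and 1306 held E. An acidic residue stood at position 3 in 923 members (59.2%) against 14.9% of the other loops, a difference that the rule itself favours. Members had 7 to 24 residues with a median of 12, the same median as the other loops, and the 67 members of 15 residues or more are counted but not printed. By their last 5 residues, 527 members (33.8%) ended like TRAJ45, against 2.55% of all loops, and 22.4% of all loops with this end were members. The ends of TRAJ33 (193 members), TRAJ26 (166), TRAJ49 (114), TRAJ48 (106) and TRAJ30 (64) followed. Most members were rare: 1194 (76.6%) had fewer than 10 reads in every library, and 42 reached 100 reads in any.

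Naive repertoires gave the largest part of their reads to acidic loops, MP repertoires less and Tumour repertoires least. The share of reads was 0.918, 0.909, 0.929, 0.794 and 0.806% in Naive libraries 1 to 5, with a mean of 0.871% ± 0.0654 (SD, n = 5). In MP libraries 1 to 5 it was 0.553, 0.251, 0.539, 0.681 and 0.479%, with a mean of 0.501% ± 0.158 (SD, n = 5). In Tumour libraries 1 to 5 it was 0.0924, 0.278, 0.276, 0.261 and 0.0158%, with a mean of 0.185% ± 0.123 (SD, n = 5). Every MP library lay below every Naive library, while Tumour 2, Tumour 3 and Tumour 4 lay above MP 2. The depth was 547665 to 943699 reads per library, and the 95% Wilson interval of the lowest value, Tumour 5, was 0.0134 to 0.0185%. No molecular identifiers are stated, and PCR reads are not independent molecules, so that such an interval covers counting error only.

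The share was 1.74-fold lower in MP than in Naive (difference -0.371 percentage points, exact two-sided permutation test, adjusted p = 0.0119 over 3 comparisons). It was 4.71-fold lower in Tumour than in Naive (difference -0.687, adjusted p = 0.0119, exact permutation test). Tumour was 2.71-fold lower than MP (difference -0.316, exact permutation test, adjusted p = 0.0317). That call was lost without MP 1, MP 3, MP 4, MP 5, Tumour 1 or Tumour 5, with an exact adjusted p of 0.0635 in each case and differences from -0.321 to -0.271. Loops of net charge -3 or lower alone differed between MP and Naive by -0.00388 percentage points (exact adjusted p = 0.365). The smallest p that 5 against 5 libraries allow is 0.00794. The labels do not say which libraries come from separate mice beyond their numbers, so that the p-values measure the spread between these libraries.

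**Figure D1:**
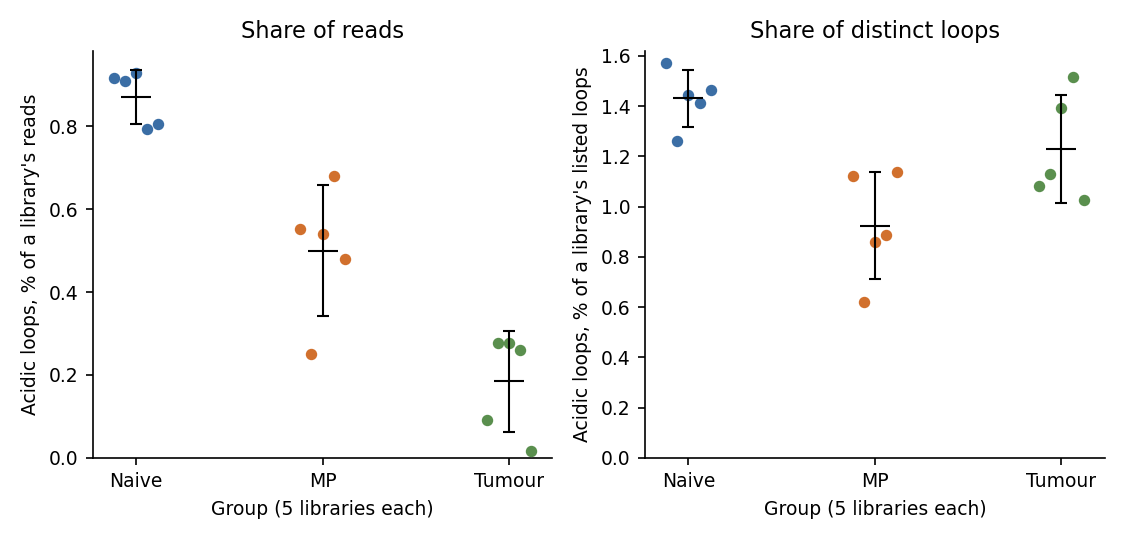
The left panel plots the percent of each library's reads that lie in acidic loops and the right panel the percent of its listed loops that are acidic, by group, with 5 libraries as points and the mean with its SD as bars. By reads the Tumour libraries lie at or below 0.278%, while by distinct loops they lie between 1.02 and 1.52%. There Tumour 3 and Tumour 4 lie inside the Naive range of 1.26 to 1.57%. Tumour 1, Tumour 2 and Tumour 5 lie below it and inside the MP range of 0.619 to 1.14%.

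Counted by distinct loops, each peptide weighing the same, the groups were closer and their order changed. The numbers of acidic loops were 465, 188, 391, 352 and 378 in Naive 1 to 5, 139, 21, 19, 26 and 159 in MP, and 16, 30, 13, 23 and 10 in Tumour. They were 1.43% ± 0.113 (SD, n = 5) of the listed loops in Naive, 0.925% ± 0.215 in MP and 1.23% ± 0.214 in Tumour. MP was below Naive (difference -0.507 percentage points, exact permutation test, adjusted p = 0.0238), with no overlap between the groups. Among loops of at least 10 reads this difference was -0.136 (adjusted p = 0.833, exact permutation test), so that the call rests on the rarer loops. Tumour differed from MP by 0.304 and from Naive by -0.203 (exact permutation test, adjusted p = 0.0952 for both). Without Tumour 4 the latter was -0.275 (exact adjusted p = 0.0476).

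Set beside the other charge classes, MP was lower than Naive in all classes of net charge 0 or lower. Loops of net charge -1 took 7.54% ± 0.238 of Naive reads, 5.52% ± 0.116 of MP reads and 8.45% ± 1.71 of Tumour reads (SD, n = 5 each). MP was below Naive in this class by 2.02 percentage points (exact permutation test, adjusted p = 0.0132 over 5 classes). Net charge 0 was lower by a smaller part, at 34.0% ± 1.15 against 35.6% ± 0.704 (exact adjusted p = 0.0198), though not over distinct loops, where it differed by 0.991. The class of net charge 1 was higher in MP, at 52.4% ± 1.72 against 49.4% ± 0.768 (adjusted p = 0.0132, exact permutation test). In Tumour the order differed within the acid side: net charge -1 was higher than in MP by 2.93 percentage points (exact permutation test, adjusted p = 0.0397). Adjusted over the 5 classes, the fall of the acidic loops from MP to Tumour had an exact adjusted p of 0.0794. Loops of net charge 2 or higher took 6.58% ± 0.441 of Naive, 7.54% ± 0.888 of MP and 15.2% ± 6.28 of Tumour reads, with an exact adjusted p of 0.0714 for MP against Naive and 0.0794 for Tumour against each of the others.

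**Figure D2:**
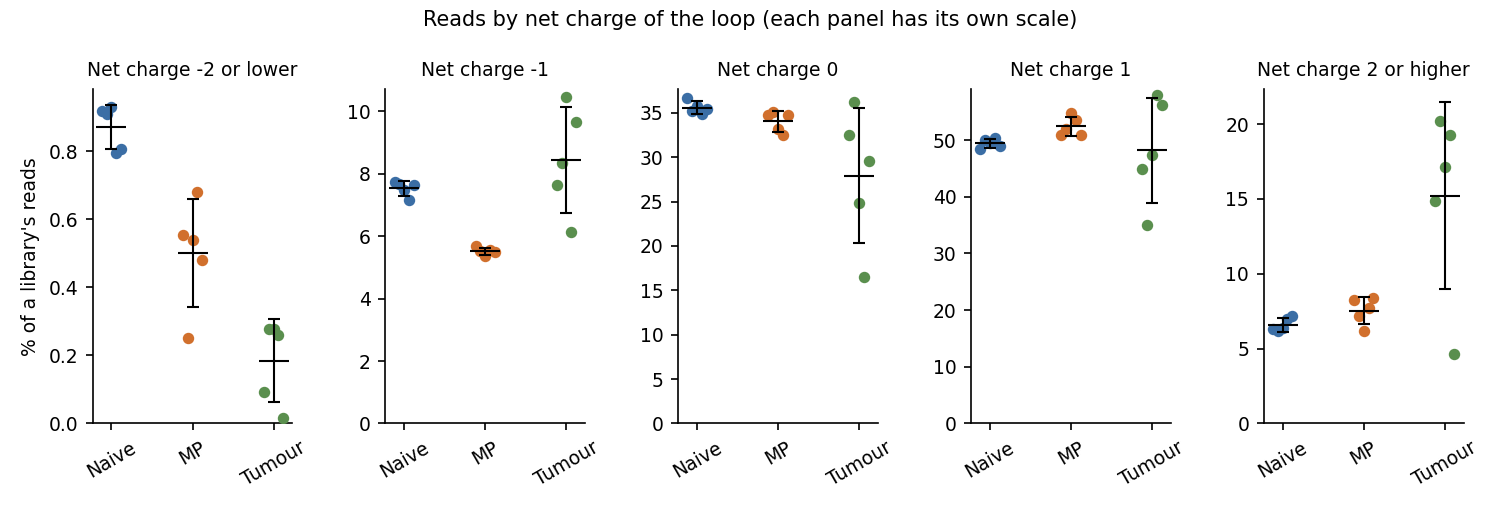
The 5 panels plot the percent of each library's reads in loops of 1 class of net charge, by group, with libraries as points and the mean with its SD as bars, on a scale that differs between panels. The acidic class falls from Naive to MP to Tumour, whereas net charge -1 falls from 7.54 to 5.52% in MP and stands at 8.45% in Tumour.

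The ends of the acidic loops differed between Naive and MP more than their overall share. In Naive the acidic reads spread over several joining segments, while in MP most lay in loops with the TRAJ45 end. This end took 21.6, 28.0, 18.8, 21.2 and 20.3% of the acidic reads in Naive 1 to 5 and 72.5, 47.0, 72.7, 62.2 and 66.8% in MP 1 to 5. The means were 22.0% ± 3.55 and 64.2% ± 10.6 (SD, n = 5 each), a 2.92-fold difference without overlap (exact permutation test, adjusted p = 0.0198 over 10 ends). Counted by distinct loops, the difference was 12.8 percentage points and was not called (exact adjusted p = 0.111), so that the call rests on the reads per loop. The ends of TRAJ33, TRAJ49 and TRAJ30 went the other way. TRAJ33 fell from 26.3% ± 1.89 to 7.90% ± 3.16, TRAJ49 from 15.5% ± 1.53 to 0.307% ± 0.335 and TRAJ30 from 13.8% ± 1.05 to 0.311% ± 0.455 (n = 5 each, adjusted p = 0.0198 for each, exact permutation test). Over distinct loops these differences were -0.576, -5.81 and -4.42 percentage points, and none was called (exact adjusted p = 1, 0.111 and 0.111). The highest MP values were 0.677% for TRAJ49 and 1.01% for TRAJ30, both in MP 1, and MP 3 and MP 4 listed no acidic loop of either. The end NEKIT, commonly TRAJ48, fell from 3.21% ± 0.581 to 1.06% ± 1.47 (exact permutation test, adjusted p = 0.0476). The TRAJ26 end took 10.4% ± 1.30 and 9.74% ± 9.67, with MP values from 0.117% in MP 2 to 25.6% in MP 4 (exact adjusted p = 1).

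Tumour libraries had no common leading end. TRAJ45 took 30.3, 18.9, 8.25, 52.3 and 0% of the acidic reads in Tumour 1 to 5, and TRAJ26 took 1.16, 0.277, 83.7, 46.7 and 4.03%. TRAJ21 took 19.7, 14.8, 0.461, 0.375 and 71.1%, against 1.11% ± 0.560 in Naive (SD, n = 5). TRAJ30 took 28.2% in Tumour 2 and at most 2.46% in the others, and without Tumour 2 this end was lower than in Naive (difference -13.2 percentage points, exact adjusted p = 0.0381). TRAJ33 held 27.1 and 30.6% in Tumour 1 and Tumour 2 and at most 0.422% in the others. Against MP no end passed the test over 12 ends, where TRAJ45 had an exact adjusted p of 0.190. Against Naive, TRAJ49 was lower, at 2.61% ± 3.58, as were TRAJ48 and the rarer ends ASALT (commonly TRAJ35) and GRALI (TRAJ15), each with an exact adjusted p of 0.0238. Over distinct loops TRAJ49 was not called (difference -5.13). ASALT and GRALI were found in acidic loops of no tumour and took 1.63% ± 0.316 and 1.25% ± 0.782 of Naive acidic reads.

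**Figure D3:**
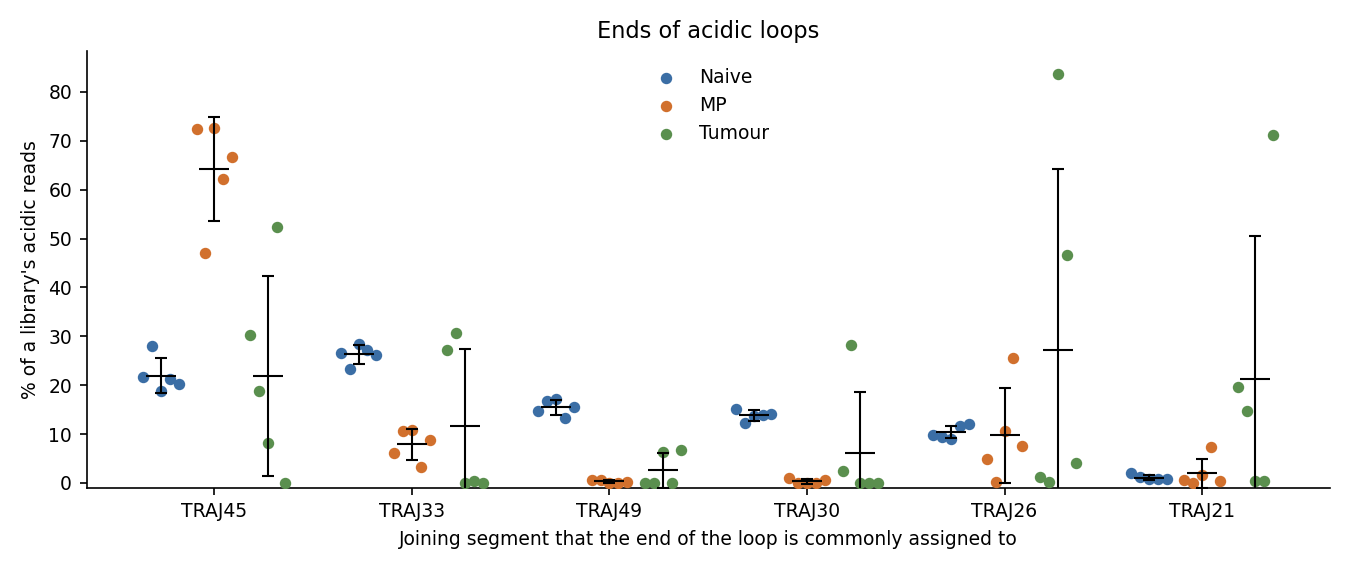
The plot shows the percent of each library's acidic reads that lie in loops with each of 6 ends, named by joining segment, with libraries as points coloured by group and the mean with its SD as bars (clipped at 0). The 5 MP libraries sit between 47.0 and 72.7% for TRAJ45, above all Naive and 4 of 5 Tumour libraries, and near 0 for TRAJ49 and TRAJ30.

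The acidic reads with an end depend on how much of the repertoire has the end and on how much of that is acidic. The acidic share of the reads with each end was therefore taken as well, a measure chosen after the ends had been seen. Of all reads with the TRAJ45 end, acidic loops took 11.7, 13.0, 10.4, 10.3 and 9.84% in Naive 1 to 5 and 44.1, 25.1, 43.9, 43.2 and 40.6% in MP 1 to 5. The groups did not overlap, and the mean rose 3.56-fold from 11.1% ± 1.30 to 39.4% ± 8.08 (SD, n = 5 each, exact permutation test, adjusted p = 0.0119 over 6 ends). Over distinct loops it differed by 2.12 percentage points (exact adjusted p = 0.429). The end itself took less of the MP repertoire, with 1.72% ± 0.130 of all Naive reads and 0.808% ± 0.202 of all MP reads. As a share of all reads, acidic TRAJ45 loops stood at 0.192% ± 0.0376 in Naive and 0.331% ± 0.125 in MP (exact adjusted p = 0.0972 over 7 ends), with MP 2 at 0.118% below every Naive library. In Tumour the acidic share within the end was 13.6, 9.25, 2.98, 13.3 and 0%, lower than in MP (difference -31.6 percentage points, exact permutation test, adjusted p = 0.0476).

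Within the ends of TRAJ33, TRAJ30 and TRAJ49 the acidic share fell in MP and in Tumour. For TRAJ33 it was 21.9% ± 1.80 in Naive, 8.05% ± 4.87 in MP and 2.17% ± 3.53 in Tumour (SD, n = 5 each). For TRAJ30 the values were 1.81% ± 0.197, 0.0461% ± 0.0674 and 0.145% ± 0.304, and for TRAJ49 they were 1.82% ± 0.289, 0.0208% ± 0.0272 and 0.233% ± 0.513. For these 3 ends the exact permutation test gave an adjusted p of 0.0119 for MP against Naive and 0.0159 for Tumour against Naive. Over distinct loops TRAJ33 was not called in either comparison (exact adjusted p = 0.262 and 0.0794), nor was TRAJ49 in Tumour (0.107). These ends were still present in MP: all loops ending like TRAJ49 took 7.43% ± 0.203 of all reads in the Naive group and 5.85% ± 1.07 in the MP group, and those ending like TRAJ30 took 6.65% ± 0.442 and 3.73% ± 0.647. For TRAJ33 these shares were 1.05% ± 0.0915 and 0.489% ± 0.0952 (SD, n = 5 each). For TRAJ26 the acidic share was 2.38% ± 0.165 in Naive and 1.02% ± 1.28 in MP (exact adjusted p = 0.0571), with MP 4 at 3.23% above all Naive libraries. For TRAJ21 it was 0.209% ± 0.101 and 0.407% ± 0.716 (exact adjusted p = 0.952).

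**Figure D4:**
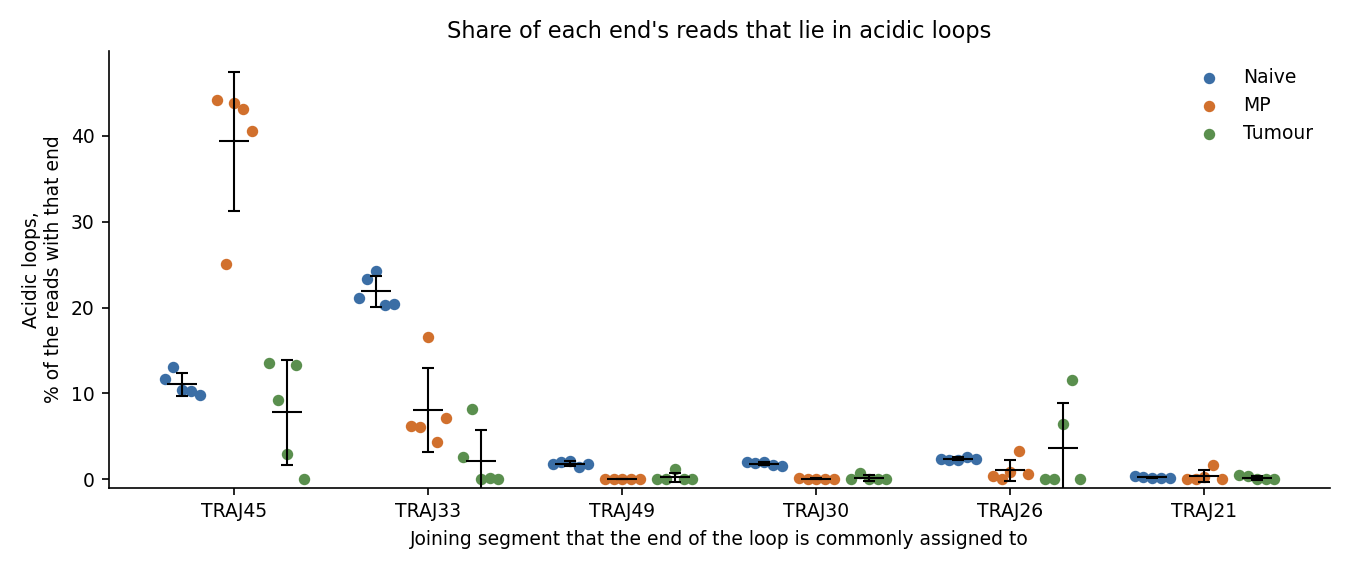
The plot shows, for each of 6 ends named by joining segment, the percent of the reads with that end that lie in acidic loops, with libraries as points coloured by group and the mean with its SD as bars (clipped at 0). For TRAJ45 the MP libraries lie between 25.1 and 44.1% and the Naive ones between 9.84 and 13.0%, while for TRAJ33, TRAJ30 and TRAJ49 the Naive libraries are higher than those of MP.

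The leading acidic loop was the same in all 5 Naive libraries. AIEDSNYQLI had 1355, 893, 1184, 994 and 1026 reads in Naive 1 to 5, or 0.181% ± 0.0193 of all reads (SD, n = 5) and 17.9 to 22.6% of the acidic reads. It ranked between 69 and 94 among all loops of its library. MP 5 listed it with 4 reads, no other MP library and no tumour listed it, and it was called lower in MP (log2 fold change -10.38, SE 1.50, edgeR adjusted p = 0.00066). Against tumours the level was at least 463-fold lower, taking 3 reads per library for an unlisted loop. Such a bound assumes that an unlisted loop had too few reads, since the lowest listed count was 2, and not that an unstated filter removed it.

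ATDADTGYQNFY and ATDEDTNAYKVI, the next in Naive, hold acidic residues at positions 3 and 5. ATDADTGYQNFY had 661, 633, 673, 418 and 566 reads in Naive 1 to 5 and was listed in no MP or Tumour library, at least 224-fold lower in MP and at least 252-fold lower in Tumour. ATDEDTNAYKVI had 783, 440, 579, 494 and 532 reads in Naive and was likewise unlisted elsewhere, at least 213-fold lower in MP and at least 239-fold lower in Tumour. Both were called lower in MP (edgeR adjusted p = 0.00066 for each) and in Tumour (edgeR adjusted p = 1.27e-05 for each). A loop of the same residues as the latter in another order, ATEDDTNAYKVI, had 54 reads in Naive 1 and 611 in Tumour 2 and was listed in no other library.

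Not every leading Naive loop was low in MP. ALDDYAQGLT had 295, 145, 177, 201 and 295 reads in Naive 1 to 5, 729 in MP 4 and 201 in MP 5, and was unlisted in the other MP libraries and in all tumours. Its means of 0.0364% ± 0.00806 and 0.0313% ± 0.0550 (SD, n = 5 each) differed by -0.22 on the log2 scale (SE 1.87, edgeR adjusted p = 0.93). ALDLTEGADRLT had 77 to 101 reads in every Naive library and 122, 171 and 88 in MP 1, MP 4 and MP 5 (log2 fold change -0.40, SE 1.43, edgeR adjusted p = 0.83). It was unlisted in MP 2, MP 3 and all tumours.

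Among acidic loops with the TRAJ45 end that begin ALEL or ALDL, the residue at position 5 differed between Naive and MP libraries. Position 5 lies within the germline end NTEGADRLT in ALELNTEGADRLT and before it in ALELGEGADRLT. A family of 49 members begins ALEL or ALDL and ends ADRLT, a grouping made after the loops had been seen. It took 10.1% ± 1.26 of Naive acidic reads and 27.9% ± 16.2 of MP acidic reads (SD, n = 5 each), with 36.5, 38.8, 0, 27.6 and 36.7% in MP 1 to 5. MP 3 listed no member of it, and of the tumours Tumour 2 alone listed any. Glycine stood at position 5 in 69.8, 49.9, 68.3, 71.2 and 65.5% of the family's reads in Naive 1 to 5 and in 8.14, 0, 0 and 6.73% in MP 1, MP 2, MP 4 and MP 5. Asparagine stood there in 0 to 14.1% of the Naive family reads and in 38.6, 41.1, 45.7 and 50.2% of those in the same 4 MP libraries. Methionine was absent from this position in all Naive reads of the family and took 12.6, 17.7, 12.3 and 16.0% in these MP libraries, while tyrosine took 0.647 to 5.32% in Naive and 24.1, 40.6, 6.48 and 15.3% in MP. Threonine took 15.6 to 22.6% in Naive and 6.85, 0, 15.8 and 7.32% in the same MP libraries. These are descriptions without a test.

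The single loops below supply part of the family's reads, so that they restate this division and are no separate support for it. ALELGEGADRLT had 200, 137, 168, 167 and 175 reads in Naive 1 to 5 and was listed in no MP library, at least 64.2-fold lower (edgeR adjusted p = 0.00066). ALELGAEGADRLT, with 38 to 96 reads in Naive, was also unlisted in MP, at least 20.9-fold lower (edgeR adjusted p = 0.00066). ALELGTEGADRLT, which also has glycine at position 5, was listed with 145 reads in MP 1 and 81 in MP 5 against 70 to 155 in Naive, and was not called (edgeR adjusted p = 0.44). In the other direction, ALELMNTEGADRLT had 185, 54, 133 and 178 reads in MP 1, MP 2, MP 4 and MP 5 and was listed in no Naive library. It was at least 31.1-fold higher in MP than in Naive (edgeR adjusted p = 0.0098), and was called without each library in turn. Loops unlisted in either group entered the edgeR comparison, which required 10 reads in at least 3 libraries, through the other group alone. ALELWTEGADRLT had 105, 55 and 19 reads in MP 1, MP 4 and MP 5 and none elsewhere, at least 9.66-fold higher (edgeR adjusted p = 0.030). That call was lost without Naive 1, Naive 2, Naive 3 or Naive 5, with an edgeR adjusted p of up to 0.053.

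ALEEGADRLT was the acidic loop with the highest mean share in MP. It is among the shortest TRAJ45 loops printed here and holds EGADRLT of the germline end. Its reads were 804, 0, 796, 661 and 284 in MP 1 to 5 and 28, 49, 28, 17 and 12 in Naive 1 to 5. The mean shares of 0.0733% ± 0.0513 and 0.00455% ± 0.00269 (SD, n = 5 each) differ 16.1-fold (log2 fold change 4.00, SE 1.37, edgeR adjusted p = 0.029). MP 2 lay below every Naive library, so that the groups overlap, and the call was lost without Naive 1, Naive 3, Naive 4 or Naive 5 (edgeR adjusted p up to 0.066). No tumour listed it (at least 188-fold lower than MP, edgeR adjusted p = 0.015).

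EDTEGADRLT, of net charge -3 and with acidic residues from position 1, was named as the loop of lowest net charge that reached 10 reads in 3 or more libraries. It had 30, 34, 0, 131 and 42 reads in MP 1 to 5, 15 in Tumour 2 and none in Naive, at least 14.9-fold higher in MP than in Naive (edgeR adjusted p = 0.012). This loop too entered that comparison through MP reads alone. The remaining leading MP loops were higher than in Naive by their means but were not called. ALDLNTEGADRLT had 561, 450 and 442 reads in MP 1, MP 4 and MP 5 against 0 to 36 in Naive (edgeR adjusted p = 0.11). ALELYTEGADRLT had 430, 267, 0, 70 and 182 in MP 1 to 5 against 3 to 27 in Naive (edgeR adjusted p = 0.057), and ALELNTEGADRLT had 127, 272, 0, 44 and 162 against 0 to 48 (edgeR adjusted p = 0.15). All 3 carry a residue other than glycine at position 5.

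Other leading MP loops belonged to 1 library. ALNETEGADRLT had 1710 reads in MP 3, 47.4% of that library's acidic reads and rank 63 among its loops, and was listed nowhere else. AIEDVLY, with 7 residues, had 660 reads in MP 2, 38.6% of its acidic reads, and was listed nowhere else. Its end could not be assigned to a segment. The most abundant acidic loop differed in each of the 5 MP libraries.

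In tumours the acidic reads rested on few loops, and those differed between tumours. The most abundant acidic loop took 29.1, 28.2, 82.6, 47.8 and 45.6% of the acidic reads in Tumour 1 to 5 against 17.9 to 22.6% in Naive, a mean of 46.7% ± 22.1 against 20.8% ± 1.88 (SD, n = 5 each, exact permutation test, adjusted p = 0.0159 over 6 features). Without loops of fewer than 10 reads the difference was 22.5 percentage points (exact adjusted p = 0.0952). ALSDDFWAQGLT had 1433 reads in Tumour 3, rank 99 among its loops. In Tumour 4 a loop of 17 residues with the TRAJ45 end had 1020 reads and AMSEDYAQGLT had 975. Each was listed in that tumour alone and in no Naive or MP library.

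Tumour 2 held several loops that other groups also listed. ATEDDTNAYKVI led it with 611 reads. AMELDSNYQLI had 225 reads there and 8, 11 and 12 in Naive 3, Naive 4 and Naive 5, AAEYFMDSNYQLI had 218 there and 315 and 9 in MP 3 and MP 5, and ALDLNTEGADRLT had 143 there. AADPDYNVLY had 280 reads in Tumour 2 alone. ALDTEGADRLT had 201 reads in Tumour 1, 14 in Tumour 2, 33 in MP 5 and 2 to 6 in Naive 2, Naive 3 and Naive 5. No acidic loop was listed in more than 3 tumours.

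Reads per loop were compared with edgeR over all loops with at least 10 reads in at least 3 of the libraries compared. Few members passed this filter, and a member could pass through the group where it is high, so that the counts are given beside those of all loops tested. For MP against Naive, 45 members were among 5954 loops tested. Of these, 4 were higher in MP, against 12.6% of all loops tested, and 26 were lower, against 48.1% (edgeR, adjusted p under 0.05). The 4 higher loops were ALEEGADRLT, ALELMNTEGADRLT, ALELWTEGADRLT and EDTEGADRLT, all with the TRAJ45 end, and took on average 18.3% of the MP acidic reads. Among these 4, 3 were listed in no Naive library and passed the filter through MP reads alone. How many of the 45 members tested had the TRAJ45 end was not counted, so that the shared end of the 4 has no background. Members tested but not called had this end too, among them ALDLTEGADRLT, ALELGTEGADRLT, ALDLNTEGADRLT, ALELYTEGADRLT and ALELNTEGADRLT. The 26 lower ones took 53.7% of the Naive acidic reads. Among them, 24 were listed in no MP library and so passed the filter through Naive reads alone. That share was not counted over all loops tested, so that it cannot be read as a trait of acidic loops. The ends of the 26 were spread, with 5 of TRAJ30, 4 each of TRAJ45, TRAJ33 and TRAJ49, and 3 each of TRAJ26 and TRAJ48. Log2 fold changes of the 26 ran from -12.32 to -4.44. Without Naive 1, Naive 3 or Naive 5 the counts fell to 2 higher, and to 17, 14 and 14 lower.

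For Tumour against MP, 10 members were tested and 6 were lower in Tumour, against 66% of the 1666 loops tested, and 0 were higher, against 7.68% (edgeR, with 6 at an unadjusted p under 0.05, and 0 higher also by DESeq2). The only member listed in 3 tumours, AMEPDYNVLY, had 6, 36 and 6 reads there. In neither Tumour comparison could a member thus pass the filter through Tumour reads alone. The filter therefore favoured a count of 0 higher in Tumour, which is no result about acidic loops. All 10 members tested had the TRAJ45 end, so that the end of the 6 was set by the filter. The 6 were listed in no tumour and passed the filter through MP reads alone. They were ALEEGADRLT, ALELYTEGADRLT, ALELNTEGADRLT, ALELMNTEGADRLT, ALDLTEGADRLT and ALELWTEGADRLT, with edgeR adjusted p-values of 0.015 to 0.018. MP 1 and MP 5 listed 12401 and 13950 loops against 2216 to 3392 in the other MP libraries, and without both of them 1 member was tested and 0 were called. For Tumour against Naive, 40 members were tested and 37 were lower, against 86.7% of the 4671 loops tested, and 0 were higher, against 3.38% (edgeR, with 37 at an unadjusted p under 0.05, and 0 higher also by DESeq2). Without Naive 5 the count was 24 lower. The called shares of the members tested, 8.89% higher and 57.8% lower in MP, and 60% and 92.5% lower in Tumour against MP and Naive, lie near those of all loops. These comparisons share their control libraries.

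A larger part of the members than of the other loops was listed in a single library, while the few that all Naive libraries shared held most of the Naive acidic reads. Mean reads per listed loop were lower for acidic than for other loops: 16.0 against 25.9 in Naive, 95.5 against 164 in MP and 71.3 against 602 in Tumour. The medians were 5.6 and 5.6, 29.1 and 21.4, and 7.3 and 13.0, averaged over 5 libraries. How far reads per loop account for the difference in sharing was not tested. Of all members, 1220 (78.3%) were listed in 1 library, against 67.6% of the other loops, and the most widely listed, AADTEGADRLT, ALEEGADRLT and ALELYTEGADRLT, were in 9 of 15. In Naive, 1279 members were listed, 1004 of them in 1 library and 36 (2.81%) in all 5, against 6.06% of the other loops. Those 36 took 63.9% ± 1.50 of the Naive acidic reads, while loops of all 5 libraries took 78.9% ± 0.556 of the other reads (SD, n = 5). They comprised 14 with the TRAJ45 end and 5 each with the ends of TRAJ33, TRAJ49 and TRAJ26. Of them, 15 were listed in at least 1 MP library and 2 in a tumour.

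In MP and in Tumour no member was listed in all 5 libraries. Of 308 members listed in MP, 270 (87.7%) stood in 1 library, against 77.3% of the other loops, 5 in 4 libraries and 0 in all 5. Of the other loops, 483 (1.92%) were in all 5, and these took 66.2% ± 1.43 of their reads (SD, n = 5). The 5 were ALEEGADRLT, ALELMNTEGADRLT, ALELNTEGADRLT, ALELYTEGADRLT and EDTEGADRLT, all of TRAJ45, and took 28.7% ± 5.79 of the MP acidic reads (SD, n = 5). Of 84 members listed in Tumour, 77 (91.7%) stood in 1 tumour, against 85.8% of the other loops, 6 in 2 and 1 in 3, the last being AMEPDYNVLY with 6, 36 and 6 reads in Tumour 1, Tumour 2 and Tumour 4. In Tumour 1 and Tumour 4 it differed by 1 residue from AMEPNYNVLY, with 2178 and 1624 reads. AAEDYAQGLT, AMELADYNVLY and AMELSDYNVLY, each in 2 tumours, lay beside such an abundant loop in both. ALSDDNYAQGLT did so in Tumour 3 alone, ALSDHDDNRIF in Tumour 5 alone and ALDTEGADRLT in no tumour. Whether such listings are reading errors was not tested. Loops listed in 1 tumour took 92.3% ± 13.0 of the acidic reads and 35.2% ± 8.15 of the other reads (SD, n = 5).

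**Figure D5:**
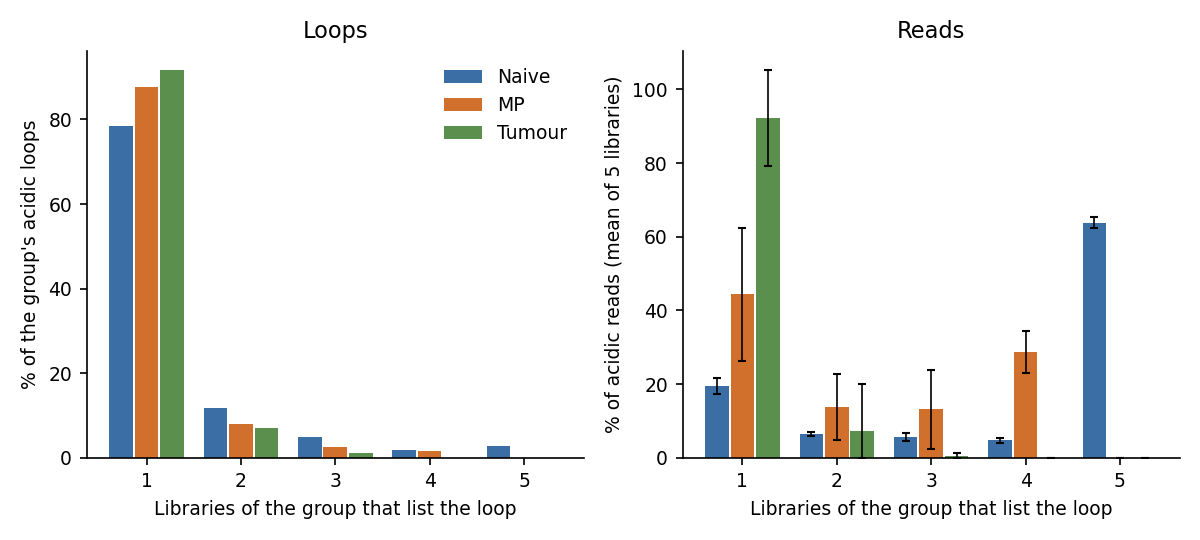
The left panel plots the percent of each group's acidic loops that were listed in 1 to 5 of its 5 libraries, and the right panel the mean percent of acidic reads in those loops, with the SD over 5 libraries as bars (clipped at 0). In Naive the loops of all 5 libraries are 2.81% of loops and 63.9% of reads, while in Tumour 92.3% of reads lie in loops of 1 library.

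The likeness of the acidic reads between 2 libraries was measured with the Morisita-Horn index, where 1 means the same loops at the same shares and 0 no shared loop. Over pairs of Naive libraries it was 0.950 to 0.989 for acidic loops and 0.954 to 0.988 for the others. Over pairs of MP libraries it ranged from 0 to 0.815 for acidic loops, with a mean of 0.295, while the other loops gave 0.876 to 0.953. Between tumours it was at most 0.0126 for acidic loops and 0.0484 to 0.497 for the others. Pairs share libraries, so that these values carry no test.

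Across groups, 98 members were listed in both Naive and MP, which is 7.66% of the Naive and 31.8% of the MP members. For the other loops these shares were 14.7 and 42.6%. Naive and Tumour shared 13 members (1.02 and 15.5%, against 2.94 and 35.3% of the other loops). MP and Tumour shared 10 (3.25 and 11.9%, against 6.25 and 25.9%), and 8 were listed in all groups. Of the latter, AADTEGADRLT, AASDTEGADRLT, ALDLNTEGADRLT and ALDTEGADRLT have the TRAJ45 end, AEMDSNYQLI and AIDPDSNYQLI that of TRAJ33, and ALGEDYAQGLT and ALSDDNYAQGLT that of TRAJ26. Among tumours, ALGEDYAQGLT had only 2 reads in Tumour 4, 1 residue from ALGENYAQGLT with 660. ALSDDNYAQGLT had 2 reads each in Tumour 2 and Tumour 3, in the latter 1 residue from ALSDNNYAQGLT with 659. No other of these members lay beside such an abundant loop in a tumour. The Tumour libraries held 69 members (82.1%) that neither Naive nor MP listed, against 58.8% of the other Tumour loops. These took 56.4, 33.6, 95.6, 99.7 and 89.3% of the acidic reads in Tumour 1 to 5, while such loops took 27.3, 32.2, 29.1, 53.5 and 23.5% of the other reads.

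Many tumour loops, acidic or not, lay beside a far more abundant loop of their own library. Within a library, 42 of the 92 listings of an acidic loop in Tumour (45.7%) differed by 1 residue from a loop with at least 100 times as many reads, against 16 of 364 (4.40%) in MP and 47 of 1774 (2.65%) in Naive. Of the other loops, 28.9 to 68.7% did so in the tumours, 7.58 to 30.5% in MP libraries and 7.04 to 7.27% in Naive libraries. By library, this part was lower for acidic than for other loops in Tumour 1 (25 against 42.5%), Tumour 2 (16.7 against 28.9%) and Tumour 3 (53.8 against 68.2%). It was higher in Tumour 4 (73.9 against 50.5%) and Tumour 5 (90 against 68.7%). In Tumour 5 closeness to such an abundant loop held for 9 of 10 acidic loops and 98.7% of the acidic reads. There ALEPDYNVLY, with 68 reads, stood beside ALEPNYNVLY with 33292 (N5D), and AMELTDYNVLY, with 33, beside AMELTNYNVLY with 4667 (N6D). In Tumour 4 it held for 17 of 23 loops but for 2.76% of the acidic reads. With these loops counted as their neighbours, the acidic share of Tumour 5 was 0.000212% of its reads, while Tumour 2, Tumour 3 and Tumour 4 kept 0.278, 0.274 and 0.258%. The share of reads then differed from Naive by -0.693 in Tumour and from MP by -0.320 percentage points (exact permutation test, adjusted p = 0.0119 and 0.0317). Whether such loops are reading errors was not tested.

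The make-up of the acidic reads differed between Naive and MP in features that the rule left free. Loops without K or R took 56.3% ± 1.96 of the acidic reads in Naive and 17.8, 51.1, 26.6, 37.8 and 20.5% in MP 1 to 5, without overlap (exact permutation test, adjusted p = 0.0238 over 6 features). The TRAJ45 end itself holds R, so that a member with the whole end needs at least 3 acidic residues. Of the acidic residues, weighted by reads, D made up 61.2% ± 1.41 in Naive and 48.5% ± 6.88 in MP (SD, n = 5 each, exact adjusted p = 0.0238). The first 4 positions held 61.1% ± 1.70 of the acidic residues in Naive and 51.5% ± 7.36 in MP (exact adjusted p = 0.0476), a call that was lost without any 1 of the libraries other than Naive 2, with differences from -11.8 to -8.10 percentage points. With each distinct loop weighing the same, none of these 3 features was called for MP against Naive. Mean length was 11.5 residues ± 0.0603 in Naive, 11.4 ± 0.657 in MP and 12.3 ± 1.30 in Tumour (SD, n = 5 each), and was called in no comparison of all libraries. Without Tumour 5, Tumour loops were longer than Naive ones by 1.23 residues (exact adjusted p = 0.0238).

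In Tumour the first 4 positions held 51.7, 51.0, 48.0, 20.4 and 51.0% of the acidic residues, below all Naive libraries (exact permutation test, adjusted p = 0.0159). Loops of net charge -3 or lower took 0 to 0.692% of the Tumour acidic reads against 1.06 to 1.96% in Naive (exact adjusted p = 0.0159). Both calls were lost over distinct loops (exact adjusted p = 0.321 and 0.324), and the latter also without loops of fewer than 10 reads (exact adjusted p = 0.0714). MP spanned 0.0831% in MP 3 to 3.35% in MP 4, where EDTEGADRLT accounts for the reads of the only listed loop of that class. Against MP no feature passed the test in Tumour, with exact adjusted p-values of at least 0.0952.

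By their start, which reflects the variable segment, the acidic loops of Naive and MP also differed, in a comparison chosen after the loops had been seen. Loops starting ATD took 27.7% ± 2.59 of the acidic reads in Naive and 3.94, 10.4, 0, 0 and 7.20% in MP 1 to 5 (exact permutation test, adjusted p = 0.0423 over 16 starts). Those starting ALE took 13.1% ± 1.23 in Naive and 34.8% ± 9.22 in MP, without overlap (exact adjusted p = 0.0423). The start AIE, to which the leading Naive loop belongs, took 22.1% ± 1.59 in Naive and 0 to 1.17% in MP other than MP 2, where AIEDVLY brought it to 38.6% (exact adjusted p = 0.127). No tumour listed an acidic loop starting AIE. An acidic residue at position 3 was carried by 87.2% ± 1.20 of the Naive, 77.5% ± 23.3 of the MP and 51.3% ± 42.8 of the Tumour acidic reads (SD, n = 5 each, exact p of 0.667 for MP and 0.167 for Tumour against Naive, not adjusted).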

How the data were processed

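The authors deposited 1 list of read counts per CDR3 peptide for each of 15 libraries, without normalization. Per the labels' protocols, sorted cells gave RNA by Trizol, and library preparation was left to iRepertoire (arm-PCR). The sources used here do not give the aligner, the CDR3 caller or an error filter. The lowest count was 2 in the lists, and the depth was the sum of the counts. Libraries listed 934 to 29559 loops.

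Net charge was K plus R minus D plus E, and the end was the last 5 residues. Shares per library were compared by exact two-sided permutation tests over all 252 assignments of 5 against 5 libraries (2 times the smaller tail), with Benjamini-Hochberg adjustment within a comparison, or over the 3 comparisons for the overall shares. Counts of all loops that reached 10 reads in 3 or more libraries were fitted with edgeR 4.0.16 in R 4.3.3 (quasi-likelihood, robust, total reads as library size, without TMM), each pair of groups alone, with limma 3.58.1 loaded. Adjustment was over all loops tested and the threshold was 0.05. A fold against an unlisted group took 3 reads per library. The permutation test was checked on small fixed examples with known answers, and the edgeR fit on simulated data. Python 3.11.15 with numpy 2.4.6, pandas 2.3.3, scipy 1.17.1 and matplotlib 3.10.9 was used.

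Alternatives were TMM, DESeq2 1.42.0, other count filters (50 reads, or 1 read in 2 libraries), a 2-fold minimum, other charge limits (-1 and -3), histidine counted as positive, ends of 4 and 6 residues, equal weight per distinct loop, thinning, folding of loops 1 residue from a loop at least 100 times as abundant, a block for the library number, and leaving out single libraries. No label says that a number shared by a Naive and an MP library marks 1 mouse, and the groups were treated as unpaired.

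The loops named were the 8 of highest mean share in each group, up to 4 called ones of highest share each way per comparison, and up to 4 of lowest net charge with at least 10 reads in 3 libraries. Ends of at least 5% of acidic reads in a group were named. Loops shared by several libraries, beside an abundant loop, of net charge -4 or in all groups, and the ends TRAJ48, TRAJ35 and TRAJ15, were named after their values were seen. The members and lists were chosen with earlier results of these data known.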

Additional observations from a re-analysis of the deposited data

Results flagged for a closer look

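In 25 of 103 groups of 5 libraries checked, 1 library stood apart from the other 4 by Dixon's criterion, which chance meets in about 1 group of 20. Loops listed in 1 library of a group meet it by construction.

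Tumour 2 was the highest for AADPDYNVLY (0.0360% of reads), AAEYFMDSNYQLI (0.0280%), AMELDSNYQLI (0.0289%) and ATEDDTNAYKVI (0.0785%), with 0 in the other tumours. It was also the highest for the TRAJ30 end, with 28.2% of its acidic reads against 2.46% in the next tumour, and for the acidic share within that end (0.689 against 0.0360%). Tumour 3 was the highest for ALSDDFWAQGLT (0.228%) and for the acidic share within the TRAJ49 end (1.15 against 0.0140%). Tumour 4 was the highest for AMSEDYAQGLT (0.119%) and for a loop of 17 residues (0.125%), and the lowest for the part of acidic residues within the first 4 positions (20.4 against 48.0%). Tumour 1 was the highest for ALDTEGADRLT (0.0269 against 0.00180%). Tumour 5 was the highest for the TRAJ21 end (71.1% of its 149 acidic reads against 19.7%).

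Among MP libraries, MP 2 was the highest for AIEDVLY (0.0968%) and so for the end EDVLY (38.6%), and the lowest for the acidic share within the TRAJ45 end (25.1 against 40.6%). MP 3 was the highest for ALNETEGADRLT (0.255%) and for the acidic share within the TRAJ33 end (16.6 against 7.14%). MP 4 was the highest for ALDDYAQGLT (0.127 against 0.0294%), for EDTEGADRLT (0.0228 against 0.00614%), for the TRAJ21 end (7.26 against 1.55%), and for the acidic share within the ends of TRAJ26 (3.23 against 0.896%) and TRAJ21 (1.68 against 0.238%). In Naive, Naive 3 alone listed the end EDVLY (0.0375% of acidic reads), and Naive 2 was the highest for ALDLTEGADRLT (0.0170 against 0.0148%).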

How the results depend on the processing

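Differences of shares are in percentage points. With -1 as the limit, the share of reads in Tumour differed by 2.61 from MP and by 0.225 from Naive, and the share of distinct loops by 2.55 and 0.679, all above 0. With -3, the share of reads in MP differed from Naive by -0.00388, no longer past the threshold, and the distinct share in Tumour from MP by -0.00739. Without loops of fewer than 10 reads, the distinct share in MP differed from Naive by -0.136, length by 0.103 residues, and in Tumour against Naive the part of net charge -3 or lower by -0.610, D by -2.31 and the leading loop by 22.5. Of these, all but length and D lost their call.

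With equal weight per distinct loop, MP against Naive was no longer past the threshold for loops without K or R (-2.19), D (-2.40) and the ends of TRAJ45 (12.8), TRAJ30 (-4.42), TRAJ33 (-0.576) and TRAJ49 (-5.81), the first 4 positions turned to 1.65, net charge 0 to 0.991 and 2 or higher to -0.970, and the leading loop (2.73) passed. In Tumour against Naive, net charge -3 or lower (-1.68), the first 4 positions (-3.90) and TRAJ49 (-5.13) no longer passed, loops without K or R (15.7), TRAJ21 (16.9), net charge -1 (0.882) and 1 (-3.12) passed, net charge 0 turned to 0.838 and the acidic share within TRAJ21 to 1.32. In Tumour against MP, TRAJ33 turned to -0.698, the acidic share within TRAJ21 to 1.29, and net charge 1 (-4.97) passed.

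With the filter loosened to 1 read in 2 libraries, edgeR called 20 members higher and 188 lower in MP against Naive, 3 and 30 in Tumour against MP, and 4 and 267 in Tumour against Naive. With at least 50 reads it called 4 lower in MP against Naive and 8 in Tumour against Naive. Without MP 1 and MP 5 it called 1 higher in MP than in Naive, and 0 lower in Tumour than in MP. The library number as a replicate block gave 3 higher and 25 lower. The paired deviations of same-numbered Naive and MP libraries correlated by -0.000131 to 0.0440, and 2 of 5 matched best with their own number, so that the numbers were not taken as pairs.

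With each library left out in turn, the calls in MP against Naive ran from 2 to 6 higher and from 14 to 27 lower, and in Tumour against Naive from 24 to 38 lower. The distinct share in Tumour against Naive ran from -0.275 to -0.152 and the share of reads in Tumour against MP from -0.378 to -0.271. For MP against Naive the ranges were -11.8 to -8.10 for the first 4 positions, -0.206 to 0.197 for length, -0.0715 to 0.745 for net charge -3 or lower, -4.63 to 1.74 for TRAJ26, -0.00749 to 9.65 for EDVLY and -0.460 to 1.36 for TRAJ21. For Tumour against Naive they were -7.63 to 5.44 for TRAJ45, -13.2 to -6.15 for TRAJ30, -7.58 to 6.07 for D and 0.352 to 1.23 for length, and for TRAJ33 in Tumour against MP -1.02 to 6.64. Under all alternatives, 612 values kept direction and side of the threshold, 33 lost their call, 11 gained one, 26 turned and 17 counts of calls moved. Counting error weighs most on the 1194 loops with fewer than 10 reads in every library.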
